A study of Mus musculus with 58 samples.

Results

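BMAL1 binding sites that were listed at the same coordinates in NIH3T3 fibroblasts and in mouse liver, outside the genes of the clock itself, numbered 228. They were taken by intersecting the deposited BMAL1 peak lists of the cells and of the liver: a peak counted as common when its chromosome, start and end (mouse build mm9) were identical in both, and peaks assigned to any of 13 clock genes were left out. Of 1454 distinct BMAL1 peaks, 263 were common, and 35 of these belonged to the clock genes. The 228 peaks were assigned to 170 genes, and 1 peak carried no gene name. The classes used for comparison are the 185 non-clock peaks of the NIH3T3 list and the 978 of the liver list that had no BMAL1 peak of the other list centred within 500 bp, called NIH3T3-only and liver-only here. A further 7 NIH3T3 and 10 liver non-clock peaks had such a neighbour with unequal ends and were placed in neither class.

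The series paired genome-wide binding maps (ChIP-seq) of the clock proteins BMAL1 and CLOCK with RNA time courses in NIH3T3 cells and mouse liver. NIH3T3 is an established mouse embryonic fibroblast line, and its cultures were synchronised with 100 nM dexamethasone, a synthetic glucocorticoid, for 30 min. BMAL1 was mapped in 7 NIH3T3 libraries taken from 12 to 38 h later, and CLOCK in 6 libraries taken from 18 to 38 h. The NIH3T3 BMAL1 list is itself named for 20 h, although the labels of all 7 libraries point to it, so it may rest on that single time. The liver CLOCK list came from 1 sample labelled as pooled, of C57/BL6 mice aged 12 to 14 weeks kept under 12 h light and 12 h dark with food ad libitum, and the BMAL1 list for liver was made by the authors from older libraries taken at zeitgeber time 6. All NIH3T3 binding data were therefore from cells that had received dexamethasone, and the NIH3T3 and liver lists differ in hormone exposure and sampling times as well as in tissue. Each deposited list is 1 set of peaks for its tissue and protein, with a position, the nearest gene and the distance to that gene's start; it holds no height, score or value per library. The depth behind a peak is unknown, presence in a list is the only readout, and confidence intervals cover counting error over peaks or genes only. All 263 identical peaks, those of the clock genes included, form the leading rows of both BMAL1 lists. The labels and files used here do not say how these identical coordinates came about. Whether the lists were called independently was not tested, so identical coordinates are not shown to be agreement between separate calls. Nor is it shown that common peaks and peaks of 1 list only were called alike, which bears on every contrast between these classes. Cell identity could not be checked from peak lists.

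BMAL1 and CLOCK pair through their helix-loop-helix domains and bind DNA as a heterodimer, with the hexamer CACGTG, the canonical E-box, as the best known site. In the clock they switch on their own repressors, the Per and Cry genes, and the nuclear receptors that feed back on Bmal1. The same protein pair also binds many genes outside that loop, among them regulators of metabolism and of the cell cycle.

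Promoter sequence is printed around 10 common peaks, chosen by CACGTG or by CLOCK and not as typical sites. Of the 115 genes with a common promoter peak and a sequence, 32 held at least 2 CACGTG in 1 promoter window. The deposited peaks are in mm9, for which no sequence was used here, so each stretch was read from the RefSeq promoter table (GRCm38.p6) at the peak's deposited distance from the gene start, out to 45 bases on either side but no farther than 28 bases past the start. Where the nearest CACGTG lay within 60 bp of the peak centre, a stretch was widened to hold it and a few bases beside it. No other widening was made, and the stretch of 2410131K14Rik reached 29 bases past the start. For a gene with several peaks the one nearest to a CACGTG is shown. Every stretch runs 5′ to 3′ on the gene's own strand, and capitals mark CACGTG. The first set comprises promoters with at least 2 CACGTG in the window, led by those that also carried a CLOCK peak in NIH3T3 cells. Atxn3, a deubiquitinase, has its stretch at chr12:101958314-101958404 on the minus strand (mm9 peak chr12:103196531-103196615). Taf8, a subunit of the general transcription factor TFIID, is shown at chr17:47502364-47502454 on the minus strand (mm9 peak chr17:47639320-47639400). The stretch of 2410131K14Rik, named Spring1 in RefSeq, lies at chr5:118245188-118245256 on the plus strand (mm9 peak chr5:118695197-118695288). Trip6, a LIM-domain adaptor protein, is read at chr5:137314213-137314292 on the minus strand (mm9 peak chr5:137755589-137755651). Nptn encodes neuroplastin, a cell adhesion molecule, and its stretch covers chr9:58582047-58582137 on the plus strand (mm9 peak chr9:58429875-58429924). Mfsd1, a lysosomal transporter, and Cdk4, a kinase of the G1 phase, had no CLOCK peak and had the most CACGTG in their windows, 5 and 4. Their stretches lie at chr3:67582638-67582728 on the plus strand and chr10:127063485-127063563 on the plus strand (mm9 peaks chr3:67386581-67386630 and chr10:126500630-126500679).
Atxn3: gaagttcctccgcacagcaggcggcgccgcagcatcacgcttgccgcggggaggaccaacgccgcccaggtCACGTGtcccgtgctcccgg
Taf8: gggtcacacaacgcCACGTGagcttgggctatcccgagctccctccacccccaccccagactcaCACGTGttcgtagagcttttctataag
2410131K14Rik: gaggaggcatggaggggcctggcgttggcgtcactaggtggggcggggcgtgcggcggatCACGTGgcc
Trip6: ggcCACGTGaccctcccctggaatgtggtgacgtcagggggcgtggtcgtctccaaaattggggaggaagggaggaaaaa
Nptn: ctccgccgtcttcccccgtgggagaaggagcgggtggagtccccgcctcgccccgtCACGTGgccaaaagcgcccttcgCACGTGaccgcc
Mfsd1: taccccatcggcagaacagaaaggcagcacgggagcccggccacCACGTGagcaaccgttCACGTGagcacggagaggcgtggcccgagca
Cdk4: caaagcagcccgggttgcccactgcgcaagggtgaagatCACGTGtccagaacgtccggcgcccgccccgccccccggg

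The remaining stretches come from common promoter peaks with a CLOCK peak in the liver, and none of the 3 printed stretches holds CACGTG. Slc20a1, a phosphate transporter, has 2 CACGTG elsewhere in its window and is shown at chr2:129198638-129198728 on the plus strand (mm9 peak chr2:129024386-129024435). The liver CLOCK centre nearest to this peak lay 69 bp downstream of the peak centre. One of the CACGTG lay 71 bp downstream, beside that CLOCK centre but past the end of the stretch. Katnal1, related to the microtubule-severing protein katanin, is read at chr5:148928679-148928769 on the minus strand (mm9 peak chr5:149806827-149806926). The stretch of 4933433G15Rik lies at chr9:75410081-75410171 on the plus strand (mm9 peak chr9:75257901-75257967).
Slc20a1: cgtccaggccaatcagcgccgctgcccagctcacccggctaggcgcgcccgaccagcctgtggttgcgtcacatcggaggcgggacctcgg
Katnal1: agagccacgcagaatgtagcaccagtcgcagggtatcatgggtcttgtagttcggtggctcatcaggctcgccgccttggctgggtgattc
4933433G15Rik: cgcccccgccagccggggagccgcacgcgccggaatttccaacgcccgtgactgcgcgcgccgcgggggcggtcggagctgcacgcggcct

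In several of these stretches the hexamer sat close to the middle of the peak, which the choice of the nearest peak favours. The centre of the nearest CACGTG was 2 bp from the peak centre at Mfsd1 and 3 bp at Cdk4. At Nptn the 2 hexamers lay 14 and 37 bp from it, and at Taf8 they flanked it at 28 bp upstream and 22 bp downstream. Trip6 had its nearest hexamer 58 bp away, and Slc20a1 had 1 at 71 bp and 1 at 82 bp, both outside the printed stretch. These positions assume that the RefSeq start is the start from which the authors measured. As a check on the distances, neighbouring peaks of 1 gene in the liver list were compared: the step in distance equalled the step between centres, within 2 bp, for 110 of 162 pairs. The other pairs cannot all refer to 1 start, so some offsets between hexamer and peak here and below may be wrong.

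Most common non-clock peaks were promoter sites. Of 228, 194 (85.1%, exact Clopper-Pearson 95% interval 79.8 to 89.4) lay within 1 kb of the start of their assigned gene, against 71.7% of all 463 BMAL1 peaks in the NIH3T3 list and 44.7% of all 1254 in the liver list, clock genes and the common peaks themselves included. The median absolute distance was 156 bp with quartiles of 46 and 411.5 bp, and 60 peaks (26.3%) lay within 50 bp of the start. Peaks present in 1 list only were farther away, with medians of 618 bp in NIH3T3 cells and 6127.5 bp in liver.

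**Figure D1:**
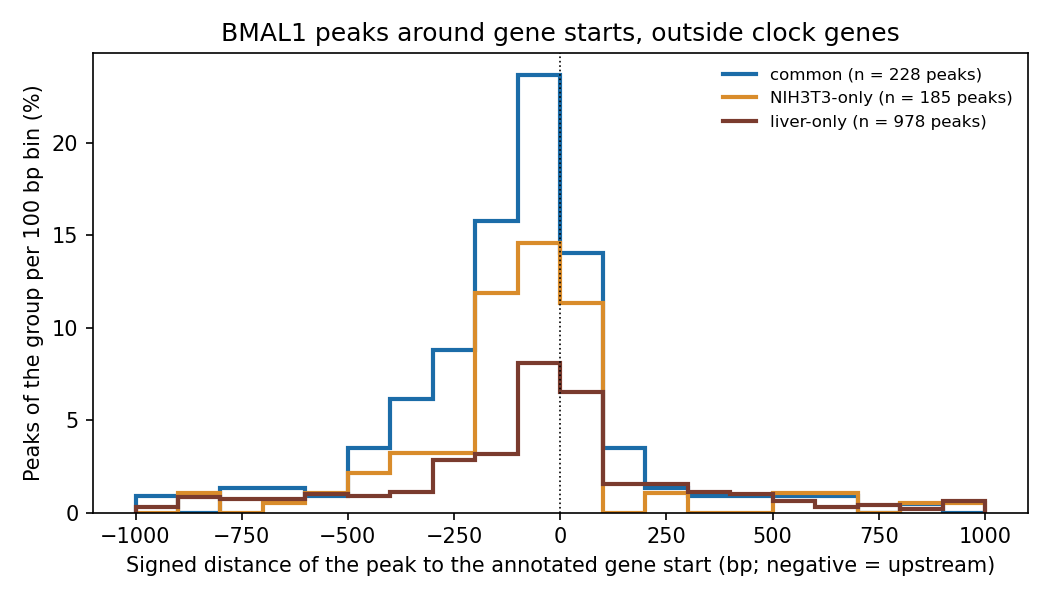
Percent of BMAL1 peaks in bins of signed distance in bp to the start of their assigned gene, within 1 kb either side (negative is upstream). Shown are non-clock peaks common to both lists (n = 228), in the NIH3T3 list only (n = 185) and in the liver list only (n = 978). Percentages are of all peaks of the class, including those outside the plotted range. The median absolute distances were 156, 618 and 6127.5 bp, the last of them outside that range.

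Neighbouring peaks are not independent, so peaks within 1 kb of each other were joined into loci for testing. Promoter position held for 145 of 172 common loci (84.3%) and for 88 of 170 NIH3T3-only loci (51.8%), an odds ratio of 4.98 (95% interval 2.93 to 8.66, two-sided Fisher exact test, adjusted p = 3.57e-10). Against the liver-only loci the contrast was wider: 146 of 172 common loci (84.9%) and 299 of 921 liver-only loci (32.5%) reached a promoter, an odds ratio of 11.7 (7.45 to 18.9, Fisher exact test, adjusted p = 9.78e-38). The 8 tests reported here were adjusted together by the Benjamini-Hochberg method. The common loci numbered 172 in both comparisons, and the promoter count differs by 1 because a locus may take in peaks of the list it is compared within.

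Within the promoter window the common peaks sat mostly upstream of the start. Of the 194, 142 were upstream (73.2%), 50 were downstream and 2 fell on the start itself, at 2610101N10Rik and Gm11974. The upstream share was 70/99 (70.7%) in the NIH3T3-only list and 193/329 (58.7%) in the liver-only list. The median signed position of the common promoter peaks was −78 bp. Others on or beside a start were those of Cuta (−1 bp), Eif4g1 (1 bp), a scaffold of the translation initiation complex, Lss (2 bp), which makes lanosterol in cholesterol synthesis, and Hps1 (−2 bp), mutated in a pigment and platelet disorder.

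A minority lay far from any assigned start: 19 (8.33%) at 1 to 10 kb and 15 (6.58%) beyond 10 kb. The farthest was assigned to Lsm3, an RNA processing protein, at 83131 bp. Pfkfb3, which sets the level of the glycolytic activator fructose bisphosphate, had a peak at −33419 bp. Tsc22d3, the glucocorticoid-induced leucine zipper, carried peaks at 31415 and 22275 bp downstream of its start. The peak assigned to Galnt2, which begins O-glycosylation, was at −29020 bp. Of the 10 farthest peaks, 6 carried a CLOCK peak, 5 of them in NIH3T3 cells (Lsm3, both of Tsc22d3, Galnt2 and Gm5218) and 1 in liver (Lima1, an actin-binding protein). The same 6 were all that had CLOCK among the 15 peaks beyond 10 kb, and over all 228 peaks 57 had CLOCK in either tissue.

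Many genes held several common peaks side by side. Of the 170 genes, 123 had 1 peak, 40 had 2, 6 had 3 and 1 had 6, so that 47 genes held 104 of the peaks. Within loci, neighbouring common peaks were a median of 104.5 bp apart, centre to centre (range 4 to 438 bp, n = 56 spacings), and 28 of the 56 spacings were at most 100 bp. Srm, which makes the polyamine spermidine, had all 6 of its peaks between 147965448 and 147966160 on chromosome 4 (mm9), at deposited distances of −140, −70, −191, −104, 9 and 108 bp. Those distances do not run in step with the coordinates, so they refer to more than 1 start. Slc20a1 had peaks at −443, −293 and −90 bp, and Nup50, a nuclear pore protein, at −419, −309 and −191 bp. In 2 genes the peaks overlapped each other and so were not separate sites (AW549877, both at 20 bp, and Abcf1, both at −119 bp). Common loci held 1.37 peaks on average in the NIH3T3 list, against 1.08 for NIH3T3-only loci. In the liver list the means were 1.40 and 1.06. A locus counted as common when any of its peaks was common, a rule that favours loci with more peaks, so these means are not like for like.

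The width of the listed interval also differed by class, although width entered the choice of members through the requirement of identical ends. The median common peak spanned 54 bp, with a range of 43 to 100 bp. Exactly 50 bp was the width of 102 of them (44.7%), of 158 of 185 NIH3T3-only peaks (85.4%) and of 915 of 978 liver-only peaks (93.6%). The reason for the different widths was not tested.

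Of the 7 and 10 near neighbours with unequal ends, the nearest on the NIH3T3 side were at Pigw (54 bp), Stt3b (60 bp) and Slc20a1 (77 bp), and on the liver side Wee1 (78 bp) and Bmp2k (106 bp) were among them. Counting peaks at any distance, 143 of the 170 genes of common peaks carried no further BMAL1 peak in either list. Of the rest, 8 had a further NIH3T3 peak, 20 a further liver peak, and Wee1, the kinase that restrains entry into mitosis, had both.

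CLOCK was listed beside only some of these BMAL1 sites. A CLOCK peak of the NIH3T3 list had its centre within 500 bp of 46 of the 228 common peaks (20.2%, 15.2 to 26.0), against 22.0% of all NIH3T3 BMAL1 peaks. In liver the count was 13 (5.70%, 3.07 to 9.55), against 4.31% of all liver BMAL1 peaks. Both shares over all peaks include the clock genes and the common peaks themselves. Among non-clock peaks of 1 list only, CLOCK was at 23 of 185 NIH3T3-only and 15 of 978 liver-only peaks. By contrast, of the 35 common peaks at the 13 clock genes, 27 (77.1%) had CLOCK in NIH3T3 cells, 26 (74.3%) in liver and 24 in both. Of the 228 non-clock peaks, 2 had CLOCK in both tissues, 44 had it in NIH3T3 cells alone, 11 in liver alone, and 171 in neither. The CLOCK lists differ in size, with 1016 peaks in NIH3T3 cells and 439 in liver. These counts were not adjusted for that, and no expected number with both was computed. The clock-gene contrast was not tested, since those peaks fall in 13 genes.

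The 2 sites with CLOCK in both tissues were at Mthfd1l and 2410080I02Rik. Mthfd1l makes formate from one-carbon units in mitochondria, and its peak lay 606 bp downstream of the start with CLOCK centres 13 bp away in NIH3T3 cells and 43 bp away in liver. At 2410080I02Rik the peak was 861 bp downstream of the start and the CLOCK centres were 82 and 70 bp away.

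Where CLOCK was present it was close. The median distance between BMAL1 and CLOCK centres was 43.2 bp in NIH3T3 cells (maximum 325 bp), with 26 of 46 within 50 bp and 36 within 100 bp. In liver it was 43.0 bp (maximum 151 bp), with 7 of 13 within 50 bp. When the listed intervals themselves had to overlap by at least 1 bp, a rule added after the data were seen for these counts, 29 NIH3T3 peaks remained. The 46 peaks fell in 34 genes. Atxn3 had the CLOCK centre 2.5 bp from that of BMAL1, and Pcx, the pyruvate carboxylase that feeds gluconeogenesis, had peaks 7.0 and 101 bp from CLOCK. All 3 peaks of Nup50 and both of Coq10b, a coenzyme Q binding protein, of Tomm20, the import receptor of the outer mitochondrial membrane, of Hdgf, a growth factor, and of Wee1 had CLOCK within the limit.

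The liver sites with CLOCK were few. They lay in 10 genes: Igsf8, Ncl, Mthfd1l, Lima1, 2410080I02Rik, Slc20a1, Gm12905, Katnal1, Fbxl22 and 4933433G15Rik. All 3 peaks of Slc20a1 and both of Igsf8, a membrane protein of the immunoglobulin family, were among the 13. Ncl encodes nucleolin, a major nucleolar protein, and its peak was at 647 bp with the CLOCK centre 32.0 bp away. Fbxl22, an F-box protein of muscle, had its peak at 2750 bp with CLOCK 11.5 bp away.

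Over loci, CLOCK in NIH3T3 cells was found at 35 of 172 common loci (20.3%) and 21 of 170 NIH3T3-only loci (12.4%). The odds ratio of 1.81 (95% interval 0.970 to 3.44) did not pass the threshold (Fisher exact test, adjusted p = 0.0652), and the interval does not show that the classes were alike. With overlap of at least 1 bp in place of the centre distance the odds ratio was 2.34 and passed (Fisher exact test, adjusted p = 0.0217, the lowest over the alternatives, which ran to 0.0654). In liver, 10 of 172 common loci (5.81%) and 15 of 921 liver-only loci (1.63%) had CLOCK, an odds ratio of 3.72 (1.47 to 9.04, Fisher exact test, adjusted p = 0.00439).

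**Figure D2:**
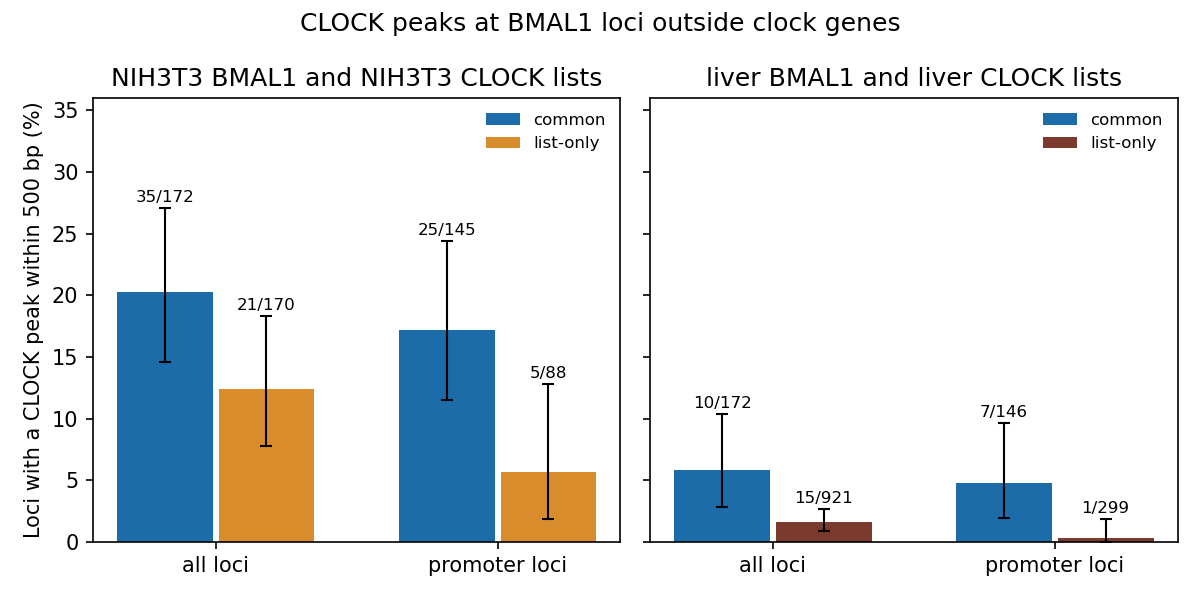
Percent of non-clock BMAL1 loci with a CLOCK peak centred within 500 bp in the same tissue, for common loci and for loci of 1 list only, over all loci and over promoter loci; error bars are exact Clopper-Pearson 95% intervals. Common loci reach 20.3% in NIH3T3 cells and 5.81% in liver, above the 12.4% and 1.63% of the loci listed in 1 tissue.

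Since common loci were more often promoters, the comparison was repeated among promoter loci. In NIH3T3 cells CLOCK lay at 25 of 145 common promoter loci (17.2%) and at 5 of 88 NIH3T3-only promoter loci (5.68%), an odds ratio of 3.44 (1.23 to 12.0, Fisher exact test, adjusted p = 0.0191). With promoters narrowed to 200 bp the odds ratio fell to 2.08 and the call was lost (Fisher exact test, adjusted p = 0.263, with 0.00573 the lowest over the alternatives). In liver the counts were 7 of 146 (4.79%) and 1 of 299 (0.334%), an odds ratio of 14.9 (1.89 to 679, Fisher exact test, adjusted p = 0.00429), which rests on 1 liver-only locus. Beyond promoters, which were not tested, CLOCK was at 10 of 27 common and 16 of 82 NIH3T3-only loci, and in liver at 3 of 26 and 14 of 622.

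The E-box was common in the promoters of these genes. Of 145 genes with a common promoter peak, 115 had a sequence in the RefSeq table, which spans 250 bases before to 50 after the start. CACGTG, which reads the same on both strands, was present in 66 of the 115 (57.4%), against 2187 of all 27025 genes in the table (8.09%). The share was 45 of 71 (63.4%) for genes with an NIH3T3-only promoter peak, an odds ratio of 0.779 (0.403 to 1.49, Fisher exact test, adjusted p = 0.445), and the direction of this difference turned with the promoter window. It was 79 of 236 (33.5%) for genes with a liver-only promoter peak, an odds ratio of 2.67 (1.65 to 4.34, Fisher exact test, adjusted p = 7.69e-05).

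**Figure D3:**
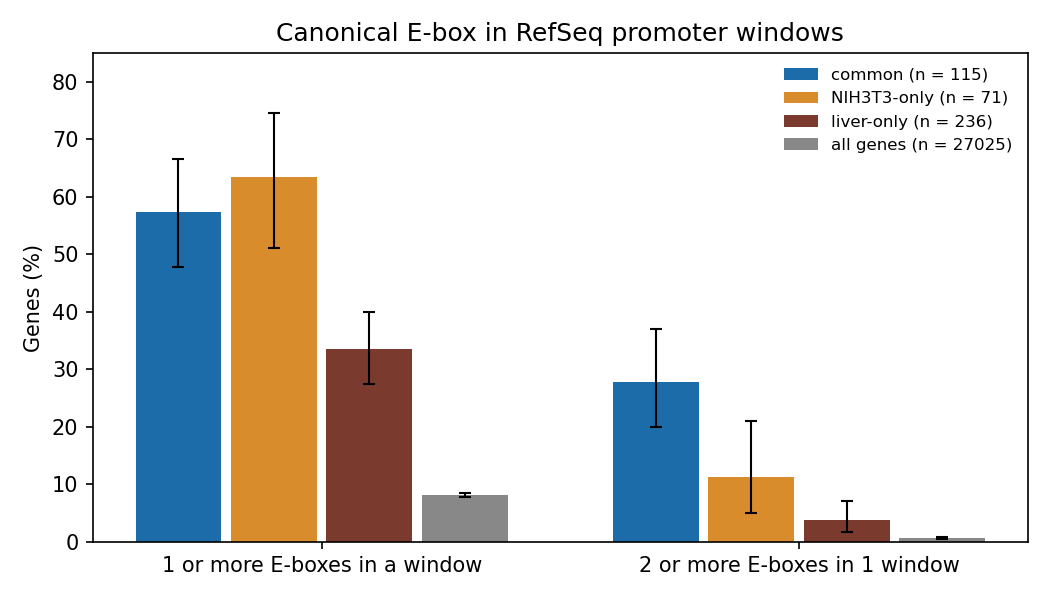
Percent of genes whose RefSeq promoter window holds the canonical E-box at least once or at least 2 times, for genes with a common, an NIH3T3-only or a liver-only promoter peak and for all genes in the table; error bars are exact Clopper-Pearson 95% intervals. Genes with common peaks (57.4%) and with NIH3T3-only peaks (63.4%) hold it at least once, and 27.8% and 11.3% hold 2 or more.

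The next values on sequence were chosen after the first were seen and carry no test. At least 2 CACGTG in 1 window occurred in 32 of 115 genes with a common promoter peak (27.8%, 19.9 to 37.0). The shares were 8 of 71 (11.3%) for NIH3T3-only genes, 9 of 236 (3.81%) for liver-only genes and 184 of 27025 (0.681%) for all genes. The excess over all genes was seen in windows with GGGCGG on either strand and in windows without it. GC content itself was not measured. Windows with GGGCGG held CACGTG in 52 of 90 genes (57.8%) against 1173 of 10324 in the table (11.4%). Windows without GGGCGG held CACGTG in 14 of 25 (56.0%) against 1014 of 16701 (6.07%). With CLOCK in NIH3T3 cells the share was 13 of 20 genes (65.0%) and without it 53 of 95 (55.8%). Of the 6 genes with liver CLOCK and a sequence, 1 held CACGTG, but for 3 of them (Mthfd1l, Ncl and 2410080I02Rik, at 606, 647 and 861 bp) the peak lies outside the window. The window is shorter than the promoter span of 1 kb either side, so the sequence under a peak was not always searched.

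The hexamers lay near the peaks. For 100 common peaks the deposited distance fell inside the sequence window, and 73 of these windows held CACGTG. In 59 (59.0%) a hexamer centre was within 50 bp of the peak centre, and the nearest was a median of 21 bp away. Of all 135 matches in those windows 82 (60.7%) were that near, while such positions made up 31.9% of the windows. By matches the share was higher in the other classes, at 38 of 53 (71.7%) for NIH3T3-only and 53 of 81 (65.4%) for liver-only peaks. By peaks, the share with a hexamer within 50 bp was 31 of 56 (55.4%) for the NIH3T3-only class and 47 of 139 (33.8%) for the liver-only class, with medians of 17.5 and 31.5 bp. Several peaks share a window, so these are not independent counts.

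**Figure D4:**
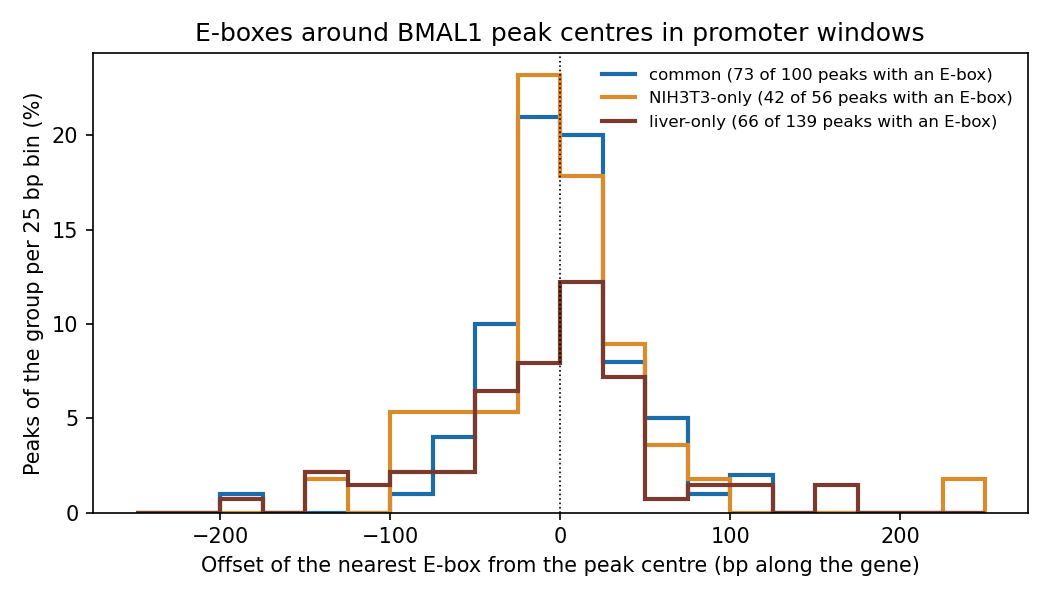
Percent of peaks in bins of the signed offset in bp of the nearest canonical E-box from the BMAL1 peak centre, along the gene's strand. Shown are common, NIH3T3-only and liver-only promoter peaks whose position falls in the RefSeq window. In the common class 73 of 100 peaks had an E-box in the window.

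The bases beside the hexamer were counted over distinct matches. A T before or an A after it (TCACGTG on either strand) was found in 80 of 107 matches in common promoters (74.8%, 65.4 to 82.7), 34 of 55 in NIH3T3-only promoters (61.8%, 47.7 to 74.6), 42 of 93 in liver-only promoters (45.2%) and 1285 of 2421 over all genes (53.1%). GTCACGTG followed the same order, with 54.2%, 41.8%, 24.7% and 31.3%. The intervals of the common and NIH3T3-only classes overlap for both words (GTCACGTG 44.3 to 63.9 and 28.7 to 55.9).

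Other motifs, all searched on both strands, were given the same count in the order common, NIH3T3-only, liver-only and all genes. TGCGCA was present in 20.9%, 5.63%, 17.8% and 8.79% of windows. AACGTG, a weaker E-box, was present in 6.96%, 8.45%, 11.4% and 5.44%. The cyclic AMP response element TGACGTCA gave 3.48%, 4.23%, 1.69% and 2.03%, and the D-box TTATGTAA gave 1.74%, 0%, 2.54% and 1.11%. CCAAT gave 47.8%, 49.3%, 40.3% and 41.1%, and GGGCGG 78.3%, 76.1%, 70.3% and 38.2%. A paired E-box here meant 2 exact hexamers, each CACGTG or AACGTG, with 6 or 7 bases between them. It was in 0 of 115 common, 0 of 71 NIH3T3-only and 1 of 236 liver-only genes, and in 6 of all 27025. Pairs with any other hexamer were not searched, so their absence is not shown.

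By function, 69 of the 170 genes fell in at least 1 of 21 lists of gene names, and 101 in none. Each count below is set beside its share among all 1124 genes with any BMAL1 peak in either list, which include the members, and no list was tested. Transcription factors were the largest group, with 14 genes (8.24% of members, 5.87% of all). Hif1a, the oxygen-regulated factor, had a peak at −171 bp with CLOCK 91.0 bp away in NIH3T3 cells, and Foxo3, restrained by insulin signalling, had one at −1425 bp with CLOCK 39.5 bp away. Klf9 had peaks at −326 and −198 bp and Klf11 at −200 bp, both zinc-finger factors of the Krüppel family without a CLOCK peak within 500 bp. The CLOCK centres nearest to the Klf9 peaks were those beside the 2410080I02Rik site, which has CLOCK in both tissues. They lay 5221 and 5349 bp away in NIH3T3 cells and 5069 and 5197 bp away in liver. Atf7 (−133 bp, CLOCK 79.0 bp away) and Junb (−155 bp, no CLOCK) are factors of the leucine zipper class. The others were Atf6b, Gtf2h1, Mnt, Smad2, Sox12, Tsc22d3, Zbtb10 and Zfp292. Mnt, a repressor that itself binds E-boxes with MAX, had its peak at 1211 bp.

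Metabolic enzymes were spread over several pathways. Amino acid, nucleotide and one-carbon metabolism held 6 genes (3.53% against 1.69%). Ppat (61 bp), which commits to purine synthesis, and Atic (−12 bp), which completes the purine ring, both had a peak at the start. So did Shmt1 (−23 bp), the cytosolic serine hydroxymethyltransferase, and Mat2b (17 bp), which regulates the synthesis of S-adenosylmethionine, while Srm and Mthfd1l are described above. Lipid metabolism held 5 genes (2.94% against 2.85%): Dgat2 (−332 bp), which makes triglyceride, Elovl1 (30 bp), which lengthens fatty acids, Lss (2 bp), Angptl4 (382 bp), an inhibitor of lipoprotein lipase, and Osbpl2 (−99 bp), a sterol-binding protein. None of these 5 had a CLOCK peak in either tissue, as was so for 171 of all 228 common peaks. Glucose metabolism held 4 (2.35% against 2.05%), namely G6pc3 (−21 bp), a glucose-6-phosphatase, Pcx, Pfkfb3 and Foxo3. The mitochondrial list held 5 (2.94% against 1.33%): Coq10b, Tomm20, Ndufa6 (21 bp), a subunit of complex I, Slc25a39 (−663 bp), a carrier of the inner membrane, and Atp5sl (−51 bp).

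Cell cycle and DNA repair held 5 genes (2.94% against 1.33%). Cdk4 had peaks at −150 and −5 bp, and the E-type cyclins that drive entry into S phase had 2 each: Ccne2 at −112 and 103 bp, and Ccne1 at 14422 and 14147 bp. Parp1, the DNA damage sensor, had a peak at −100 bp. Wee1 had peaks at −905 and −708 bp with CLOCK in NIH3T3 cells 155 and 42.5 bp away. It was the only gene of this list with CLOCK, which 57 of all 228 common peaks had in either tissue.

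Known glucocorticoid-responsive genes numbered 4 (2.35% against 0.979%): Angptl4, Foxo3, Klf9 and Tsc22d3. The fibroblasts had received dexamethasone, whereas the labels name no such treatment for the liver, and its part in these peaks was not tested. Other genes linked to the clock numbered 5 (2.94% against 1.51%), being Klf9, Klf11, Tsc22d3, Wee1 and Tspan4, a tetraspanin with peaks at −108 and −45 bp. These lists were drawn up with earlier results of these data known, so their counts are no independent evidence.

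Gene expression machinery gave smaller counts. Chromatin and coregulators held 3 (1.76% against 1.42%): Brd2 (−91 bp), a reader of acetylated histones, Ehmt2 (−242 and −179 bp), a methyltransferase of histone H3, and Kdm6b (−5242 bp), a histone demethylase. Translation held 3 (1.76% against 0.712%), among them Eif4g1 and Eef2k (−38 bp), the kinase that slows elongation. The nucleolar list held 2 (1.18% against 1.33%), Ncl and Utp18 (−31 bp), and RNA processing 2 (1.18% against 1.07%), Lsm3 and Rbm4b (−24 bp). Ubiquitin and protein degradation held 6 (3.53% against 2.40%): Cops7a (23 bp), a subunit of the COP9 signalosome, Usp28 (−367 bp), a deubiquitinase, Fbxl22, March8, Trim37 and Ube2g1.

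The remaining lists had 0 to 6 members each. Signalling held 4 (2.35% against 3.91%), among them Mapk8 (−289 and −352 bp), the stress kinase JNK, Dusp7 and Bmp2k. Transporters held 6 (3.53% against 4.80%): Slc20a1, Slc25a39, Slc41a1, Trpm7, Atp6v0b and Abcf1, of which Abcf1 is a translation factor that the name pattern drew in. Vesicle traffic and cytoskeleton held 2 (1.18% against 2.58%), Dync1h1 and Myo19, and detoxification 1 (0.588% against 1.60%), Adh5, which clears formaldehyde. Chaperones held 2 (1.18% against 0.890%), Dnajc16 and Ppia. Genes of hepatocytes, of fibroblasts and of blood and other liver cells numbered 0 among the members, and 8, 4 and 0 among all 1124 genes.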

How the data were processed

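The deposited files used were 4 peak lists, of BMAL1 and CLOCK in NIH3T3 cells and in liver, with coordinates, gene and distance to the start. Build mm9 and the tools Bowtie, SAMtools, bedtools, STAR and FastQC are named per the submitters' processing notes; neither versions nor a peak caller are stated there. The lists were deposited by the authors without values per library, and the libraries behind the NIH3T3 BMAL1 list, named for 20 h, are not stated. The other libraries (RNA, RNA polymerase II and input) were not analysed here.

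Peaks were made 1-based, compared by exact coordinates, and joined into loci within 1 kb. A CLOCK peak counted within 500 bp, centre to centre; a promoter was 1 kb either side of the deposited start. Shares were compared by two-sided Fisher exact tests over loci or genes, adjusted over 8 tests, in Python 3.11.15 with pandas 2.3.3 and SciPy 1.17.1, tested on simulated data. Gene symbols matched RefSeq for 161 of 170 genes, and 131 had a promoter sequence. No annotation of mm9 was used, so exons and introns are not given.

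Named genes were members of the name lists and genes of peaks with CLOCK in liver or in both tissues, with 2 or more common peaks, among the 10 nearest to or farthest from a start, with unequal ends, with 2 or more CACGTG, or with the most further BMAL1 peaks; a few genes that the rule names are not reported here. The members, lists and tests were chosen with earlier results of these data known. The order of the printed sequences, and the counts of repeated, flanking and offset E-boxes, were chosen after values were seen. Alternatives varied the centre distance, overlap, joining, promoter window and motif.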

Additional observations from a re-analysis of the deposited data

How the results depend on the processing

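Of 53 recomputed values, 47 kept their direction and their side of the threshold (counts stayed within 1.5 times); 6 of the 47 came from defining common peaks by centres, which left every locus count as it was and tests nothing, so 41 bear on stability. The E-box comparison with NIH3T3-only genes turned direction, from an odds ratio of 0.779 to 1.07 with a promoter of 200 bp, 1.03 with 5 kb and 1.15 with the 250 bases before the start alone; it passed the threshold under none of them. With overlap of at least 1 bp, the NIH3T3 CLOCK comparison over all loci rose to an odds ratio of 2.34 and passed, and the count of common peaks with NIH3T3 CLOCK was 29 against 46. With promoters of 200 bp, the NIH3T3 CLOCK comparison among promoter loci fell to 2.08 and no longer passed. Under that window the liver comparison had no finite odds ratio, with CLOCK at 4 of 110 common and 0 of 176 liver-only loci. The cause of these shifts was not tested. No paired analysis was possible because the lists hold no values per library, and for the same reason no library could be left out. Depth is unknown, so a peak missing from a list is not shown to be unbound.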

Other observations

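After Mfsd1 and Cdk4, the genes with the most CACGTG in 1 promoter window beside a common peak included Dvl2 and Napa, with 3 each. Dvl2, a dishevelled protein of Wnt signalling, had its peak at −56 bp and hexamers centred at −120, −73 and −30 bp from the RefSeq start. Napa, which helps to recycle the membrane fusion machinery, had peaks at −93, −25 and −32 bp in genome order, which refer to more than 1 start, and hexamers at −182, −133 and −26 bp. Neither gene had a CLOCK peak in either tissue, as was so for 171 of all 228 common peaks.

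Common peaks were also assigned to genes of microRNAs. Mir30d had peaks at −21991 and −22108 bp, Mirlet7a-1 at −8521 and −8581 bp, and Mir23a, named after its values were seen, at −6811 bp. Of these, the peak assigned to Mir23a had CLOCK in NIH3T3 cells, 50 bp away.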
